A study of Mus musculus with 12 samples.

Results

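The genes described here are 9 genes with which pancreatic beta cells sense glucose and answer incretins and fatty acids, namely Slc2a2, G6pc2, Abcc8, Kcnj11, Cacna1d, Slc30a8, Glp1r, Gipr and Ffar1. They were chosen by gene symbol, and each matched 1 row of the 22793 rows of an RNA-seq expression table. The table holds 12 libraries in 4 groups of 3, all from mice that carry RIP-rtTA and TetO-VEGF-A. The groups were CD11b+ islet macrophages after 1 week of doxycycline (Dox), CD31+ islet endothelial cells after 1 week of Dox, whole islets after 1 week of Dox, and whole islets with No Dox. The macrophages and endothelial cells were sorted from dispersed islets. In this system the rat insulin promoter (RIP) places the Dox-dependent activator rtTA in beta cells, so that VEGF-A is induced there under Dox; the No Dox islets carry both transgenes too, and no Dox-treated group without the transgenes was analysed here. The ages of the mice and the number of animals behind a library are not given, so p-values measure the spread between these samples, which may be technical.

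A beta cell takes up glucose through the transporter GLUT2, and its metabolism raises ATP. ATP closes the potassium channel built from Kir6.2 and SUR1, the membrane depolarizes, and calcium entering through voltage-gated channels triggers the release of insulin granules packed with zinc. Gut incretins and free fatty acids strengthen this secretion through G protein-coupled receptors.

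Expression is given as the authors' normalized signal, a linear value with a floor of 1. Summed signal ran from 17626506 to 25218786 over the 12 libraries, and sequencing depth is unknown. Differences are on the scale of log2(signal + 1), with the standard error (SE) and adjusted p of limma over all genes tested. A gene was called at an adjusted p under 0.05. Within the islets, Dox replicate 1 and No Dox replicate 2 stood apart from the other 4 libraries. The deviation of each library from the mean of its own group was correlated across genes with GC content. Spearman rho was 0.57 in Dox replicate 1 and 0.64 in No Dox replicate 2, against -0.44 to -0.33 in the other 4. Deviations from a group mean are tied to each other within the group, so the negative values are not independent of the positive ones. Results that rest on these libraries are given with their values. The row of Vegfa itself averaged 2027 in Dox islets and 3967 in No Dox islets, a difference of -0.98 (SE 0.30, adjusted p = 0.0853 by limma). Whether transgene reads count toward that row is not stated.

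RefSeq promoters of the GRCm38.p6 build were at hand for 5 of the 9 genes, 7 promoters in all. The 250 bases before each start were searched on both strands for CAGATG, an E-box of the type NeuroD1 binds, and TGCTGAC, a core of sites bound by Maf factors such as MafA. Both factors act on the insulin promoter. At the second of the G6pc2 starts and at the Ffar1 start both motifs occurred, and these 2 sequences are shown with the motifs in capitals. G6pc2 and Slc2a2 had the largest islet differences of the 9 genes and Ffar1 had the smallest. The promoter of Slc2a2, shown last, held neither motif.
G6pc2, chr2:69219699-69219948, plus strand: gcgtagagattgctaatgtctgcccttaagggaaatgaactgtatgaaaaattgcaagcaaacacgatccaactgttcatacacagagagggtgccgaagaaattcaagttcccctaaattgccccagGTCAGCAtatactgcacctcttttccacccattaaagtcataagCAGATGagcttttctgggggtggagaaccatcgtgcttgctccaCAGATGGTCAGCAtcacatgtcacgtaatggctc
Ffar1, chr7:30861471-30861720, minus strand: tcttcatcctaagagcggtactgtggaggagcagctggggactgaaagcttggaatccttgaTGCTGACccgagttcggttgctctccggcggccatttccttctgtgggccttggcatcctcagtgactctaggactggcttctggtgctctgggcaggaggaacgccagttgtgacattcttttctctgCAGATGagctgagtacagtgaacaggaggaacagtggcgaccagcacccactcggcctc
Slc2a2, chr3:28697653-28697902, plus strand: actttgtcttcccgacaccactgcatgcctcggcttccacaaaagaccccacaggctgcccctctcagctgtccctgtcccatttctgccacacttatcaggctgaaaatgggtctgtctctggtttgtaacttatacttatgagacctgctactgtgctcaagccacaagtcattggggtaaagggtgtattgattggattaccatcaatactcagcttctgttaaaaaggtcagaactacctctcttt

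The G6pc2 sequence held each motif 2 times, with the Maf letters read on the opposite strand as GTCAGCA. In the run CAGATGGTCAGCA the motifs lay side by side without overlap. The Ffar1 sequence held 1 of each. Of 32851 mouse promoters in the table, 14.4% held CAGATG, 3.81% held TGCTGAC and 0.685% held both. The first G6pc2 start, the Glp1r start and both Cacna1d starts held neither motif. Letters for a homeodomain site (TAATTA), a FOXA site (TGTTTAC), a CRE (TGACGTCA) and the HNF1 consensus were found in none of the 7 promoters. These matches describe letters in a window and are not evidence of binding.

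The 9 genes had lower mean signal in Dox islets than in No Dox islets, and 7 of them had no overlap between the groups. Slc2a2, G6pc2 and Slc30a8 were called lower with Dox, 3 of 9 genes, where 1.41% of the 14443 genes tested were called lower. Non-overlap in the lower direction was met by 9.64% of all genes tested, against these 7 of 9. The median difference of the 9 genes was -1.54, against 0.11 for all genes, and each of the 9 was below 0, as were 43.6% of all genes. Together the 9 genes held 0.210 to 0.275% of the summed signal of a Dox islet library and 0.970 to 1.29% of a No Dox islet library. In bulk islets, fewer beta cells and less RNA per beta cell cannot be told apart.

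**Figure D1:**
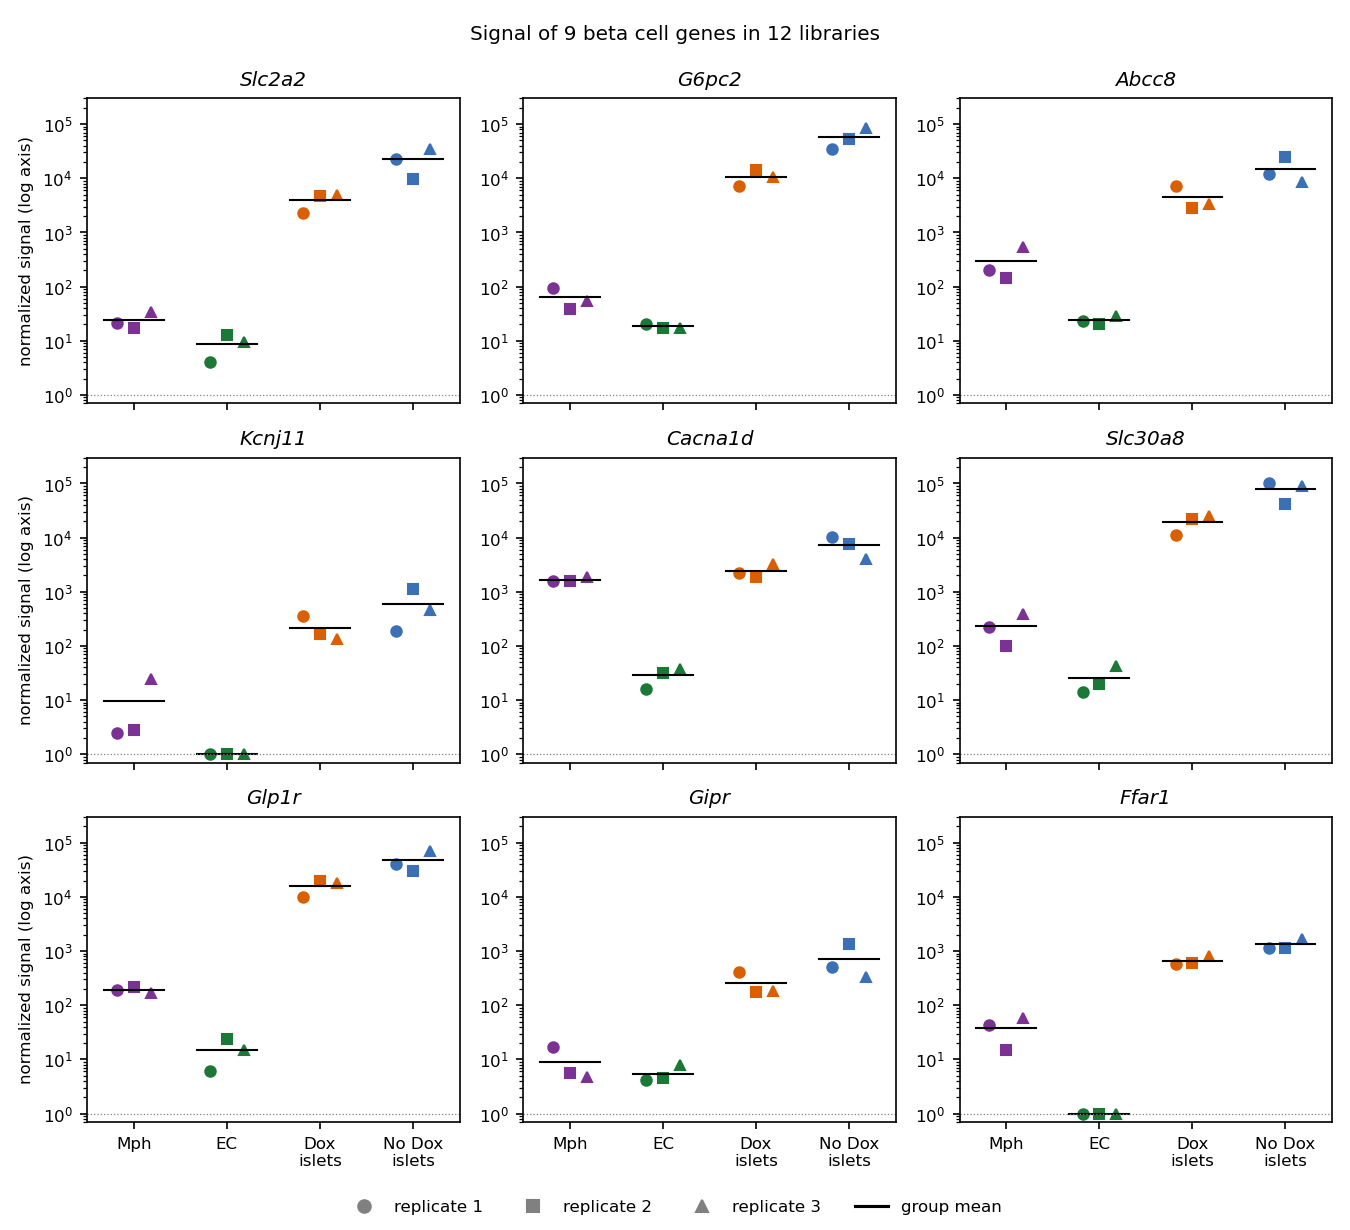
Normalized signal (log axis) of the 9 genes in each library of sorted macrophages (Mph), sorted endothelial cells (EC), Dox islets and No Dox islets. Points are libraries, with shapes for replicates, black bars are means of 3, and the dotted line is the floor of 1. Cacna1d is the gene whose macrophage points, 1550 to 1866, lie close to the Dox islet points, 1869 to 3202.

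Slc2a2 (ENSMUSG00000027690; mm9 chr3:28596825-28627278, plus strand) encodes GLUT2, the main glucose transporter of mouse beta cells. Its signal was 2249, 4735 and 4923 in Dox islets, against 22417, 9567 and 35395 in No Dox islets. All 3 Dox values lay below the lowest No Dox value, which was that of No Dox replicate 2. The mean was 17.7% of that in No Dox islets, a difference of -2.39 (SE 0.50, adjusted p = 0.0281). G6pc2 (ENSMUSG00000005232; mm9 chr2:69049130-69065898, plus strand) encodes the islet glucose-6-phosphatase, which removes phosphate from glucose-6-phosphate and so takes part in setting the glucose threshold for secretion. It had 7066, 14226 and 10759 in Dox islets, against 34501, 53964 and 85112 in No Dox islets. The highest Dox library was well under the lowest No Dox library, and the difference was -2.40 (SE 0.43, adjusted p = 0.0171). By size of the decrease, G6pc2 and Slc2a2 ranked 46 and 48 among the 14443 genes tested.

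The granule gene followed the same direction. Slc30a8 (ENSMUSG00000022315; mm9 chr15:52127108-52167353, plus strand) encodes ZnT8, which loads zinc into insulin granules. It measured 11323, 21798 and 24567 in Dox islets, against 102088, 41396 and 88615 in No Dox islets. The groups did not overlap, and the difference was -1.98 (SE 0.48, adjusted p = 0.0425). These 3 calls rested on few libraries. Without Dox replicate 2 or without Dox replicate 3, none of the 3 genes was called, and the calls over all genes fell to 5 and 88, against 829 with all libraries. G6pc2 then had adjusted p = 0.0921 and 0.0714, with differences of -2.63 and -2.43. Slc30a8 was called only when No Dox replicate 2 was the library left out (adjusted p = 0.0160).

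The genes of electrical activity had lower means with Dox, and none was called. Abcc8 and Kcnj11, neighbours on chromosome 7 with 4285 bases between them, encode SUR1 and Kir6.2, the regulatory and pore subunits of the ATP-sensitive potassium channel. Abcc8 (ENSMUSG00000040136; mm9 chr7:53359893-53435403, minus strand) had 7221, 2879 and 3391 in Dox islets, against 12137, 24250 and 8472 in No Dox islets. The groups were separate, but the highest Dox library and the lowest No Dox library were close, and the difference of -1.71 (SE 0.47) had adjusted p = 0.0634. Kcnj11 (ENSMUSG00000070561; mm9 chr7:53352533-53355607, minus strand) had 352, 164 and 137 in Dox islets, against 189, 1121 and 452 in No Dox islets. Dox replicate 1 was above No Dox replicate 1, so the groups overlapped, and the difference was -1.20 (95% interval -2.63 to 0.23, adjusted p = 0.336). Cacna1d (ENSMUSG00000015968; mm9 chr14:30853135-31304342, minus strand) encodes the pore of the L-type calcium channel Cav1.3. It had 2268, 1869 and 3202 in Dox islets, against 10220, 7685 and 4031 in No Dox islets. Dox replicate 3 came nearest to the No Dox values, and the difference of -1.51 (SE 0.39) had adjusted p = 0.0514.

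The receptors were ordered alike. Glp1r (ENSMUSG00000024027; mm9 chr17:31038785-31073455, plus strand), the receptor of glucagon-like peptide 1, had 10109, 19701 and 17852 in Dox islets, against 40251, 30547 and 71004 in No Dox islets. There was no overlap, and the difference of -1.54 (SE 0.43) had adjusted p = 0.0709. Gipr (ENSMUSG00000030406; mm9 chr7:19742474-19751476, minus strand), the receptor of the other incretin, GIP, had 411, 178 and 184 in Dox islets, against 498, 1347 and 332 in No Dox islets. Dox replicate 1 exceeded No Dox replicate 3, and the difference was -1.35 (95% interval -2.60 to -0.09, adjusted p = 0.205). Ffar1 (ENSMUSG00000044453; mm9 chr7:31645587-31646489, minus strand), the long-chain fatty acid receptor GPR40, had 567, 601 and 819 in Dox islets, against 1126, 1150 and 1701 in No Dox islets. It was the least spread of the 9, with no overlap and a difference of -0.99 (SE 0.32, adjusted p = 0.106). At an unadjusted p under 0.05, 8 of the 9 genes passed, all but Kcnj11, where 7.40% of all genes tested passed in the lower direction.

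Per kilobase of merged exon, the order of levels was nearly the same in both islet groups. In Dox islets the mean signal per kilobase was 10542 for Glp1r, 9756 for Slc30a8, 5412 for G6pc2, 1442 for Slc2a2, 908 for Abcc8, 734 for Ffar1, 262 for Cacna1d, 144 for Gipr and 70.8 for Kcnj11. In No Dox islets Slc30a8 led with 39252 per kilobase, followed by Glp1r with 31365, G6pc2 with 29311 and Slc2a2 with 8161. The first 3 lay within each other's spread between libraries. These levels hold only if the deposited values were not already scaled by length, which is not stated.

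Spread within a group went with the GC content of the transcripts in some of the 9 genes. Abcc8, Kcnj11 and Gipr, whose longest transcripts have 57.0 to 57.2% GC, were high in the 2 libraries with a GC trend. In Dox replicate 1 they stood 1.21, 1.23 and 1.18 above the mean of Dox replicates 2 and 3 on the log2 scale. In No Dox replicate 2 they stood 1.26, 1.94 and 1.72 above the mean of No Dox replicates 1 and 3. Slc2a2 (45.6% GC) and Slc30a8 (45.3% GC) were low in the same libraries, by -1.10 and -1.03 in Dox replicate 1 and by -1.56 and -1.20 in No Dox replicate 2. G6pc2, with the lowest GC content of the 9 at 44.9%, was low in Dox replicate 1 (-0.81) and not in No Dox replicate 2 (-0.01). Glp1r did not follow GC content: at 56.7% it was low in both, at -0.89 and -0.81. Ffar1, at 60.2%, deviated by -0.31 and -0.27. With the GC trend removed from each library by loess, 6 of the 9 genes were called lower, where 3.24% of all genes were under the same setting: Slc2a2, G6pc2, Abcc8, Cacna1d, Slc30a8 and Gipr.

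**Figure D2:**
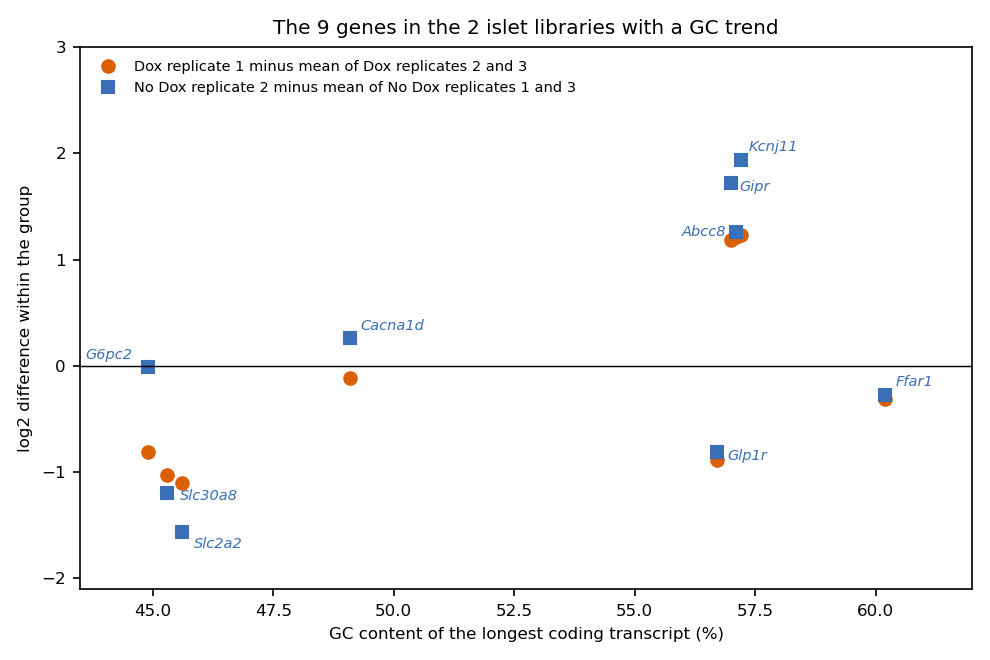
Deviation of the 9 genes, on the log2 scale, of Dox islet replicate 1 (circles) and No Dox islet replicate 2 (squares) from the mean of the other 2 libraries of their group, against the GC content of the longest coding transcript (%). Abcc8, Kcnj11 and Gipr sit above 1 in both libraries, and Slc2a2 and Slc30a8 sit below -1 in both.

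The libraries also carry numbers of 2 series in the table's second header line, beginning with 35 and with 36; what these numbers mark is not stated. Replicate 1 of each islet group is of the lower series and replicates 2 and 3 are of the higher. Within the higher series alone the difference was -1.93 for Slc2a2 (adjusted p = 0.124), -2.45 for G6pc2 (0.0559) and -1.39 for Slc30a8 (0.282), and none of the 9 genes was called. The single pair of the lower series differed by -3.32 for Slc2a2, -2.29 for G6pc2 and -3.17 for Slc30a8, with no test. Kcnj11 went in opposite directions in the series, 0.89 in the lower pair and -2.24 in the higher series, and Abcc8 had -0.75 and -2.20.

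Other beta cell genes were lower as well. Of 8 beta cell reference genes (Ins1, Ins2, Iapp, Pdx1, Nkx6-1, Mafa, Ucn3 and Pcsk1), all 8 had no overlap between groups and 4 were called lower: Nkx6-1 (-1.71), Pdx1 (-1.71), Ucn3 (-1.63) and Pcsk1 (-1.49). Over all genes tested, 9.64% had no overlap in the lower direction and 1.41% were called lower. Ins1 differed by -1.22 (adjusted p = 0.163) and Ins2 by -1.11 (adjusted p = 0.190). Of 13 pan-endocrine genes such as Chga, 13 were below 0 (median -1.30), 10 had no overlap and 3 were called lower. Of 5 alpha cell genes tested 4 were below 0, as were 1 of 2 delta cell genes and 2 of 2 pancreatic polypeptide cell genes. Of 6 ductal markers 2 were below 0 and 4 above. Of the alpha, delta, polypeptide cell and ductal genes 0 were called. Markers of endothelial cells, macrophages, pericytes, fibroblasts and acinar cells were mostly higher in the same libraries. Among all genes tested, 5.74% were called in either direction, and 75.4% of those called were higher. Of 12 endothelial markers 7 were called higher with Dox, and their summed signal was 132643 to 170160 in Dox islets and 51898 to 56654 in No Dox islets. Of 12 macrophage markers 5 were called higher, with sums of 17301 to 25677 and 6109 to 9011 in Dox and No Dox islets. Of 6 pericyte and smooth muscle markers 4 were called higher, with sums of 202432 to 421621 in Dox islets and 47564 to 122433 in No Dox islets. Of 6 fibroblast markers 2 were called higher, with sums of 48065 to 112894 in Dox islets and 15952 to 40445 in No Dox islets. Of 11 acinar markers 0 were called by limma, while all 11 were above 0 and 5 had an unadjusted p under 0.05. The share of all genes higher at that unadjusted threshold is not given, so this last count is only descriptive. No marker of these lists was at the floor in every library of an islet group. Their part in the differences of the 9 genes was not tested.

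**Figure D3:**
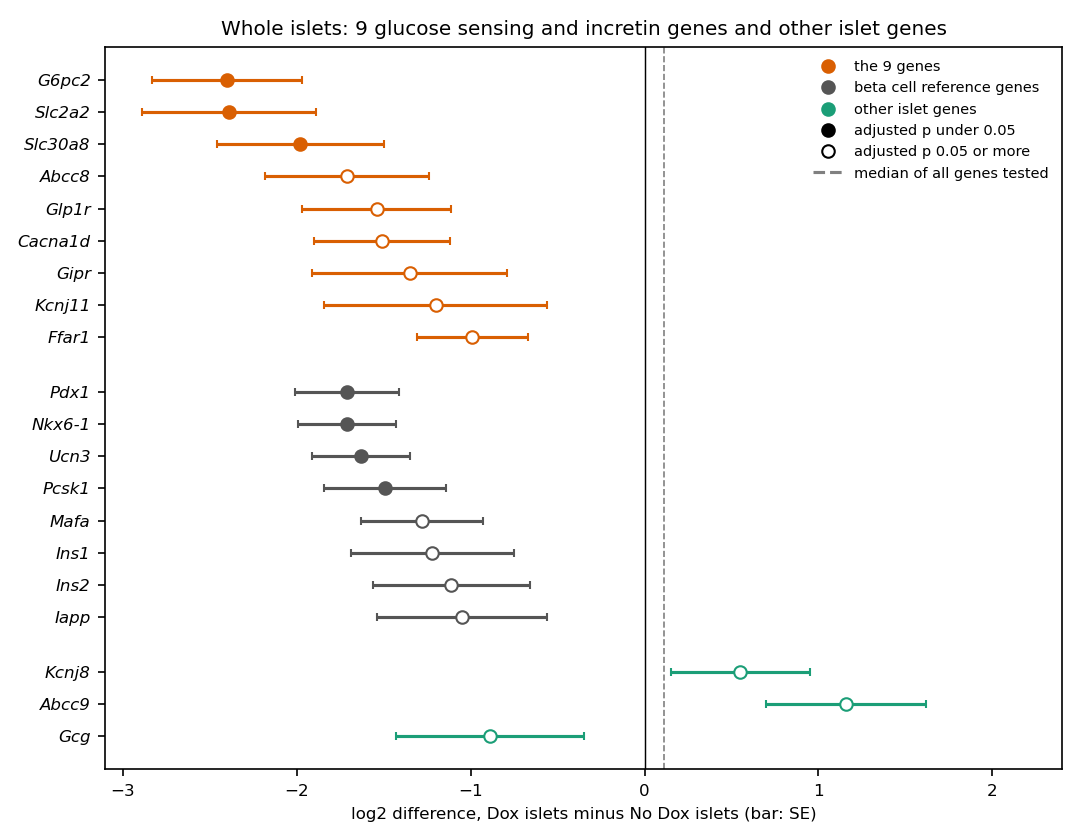
Difference on the log2(signal + 1) scale between Dox and No Dox islets (3 libraries each, bars are SE) for the 9 genes, the beta cell reference genes and 3 other islet genes; filled points passed an adjusted p of 0.05 and the dashed line is the median of all genes tested, 0.11. The 9 genes span -2.40 to -0.99 and the reference genes -1.71 to -1.05.

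To set the 9 genes against beta cell content, the mean log2 value of the 8 reference genes was subtracted from each library. On this relative scale the median of all genes moved to 1.51, and only 0.0485% of genes were called lower. G6pc2 was called lower at -1.0 (SE 0.34, adjusted p = 0.0308), while Slc2a2 stood at -0.99 (SE 0.48, adjusted p = 0.0964). The reference genes themselves spanned -0.31 to 0.35. Slc30a8 had -0.58 (95% interval -1.63 to 0.46), and the other 6 genes lay between -0.31 and 0.41, none called. With 13 pan-endocrine genes such as Chga and Neurod1 as the reference, both G6pc2 (-1.13, adjusted p = 0.0200) and Slc2a2 (-1.13, adjusted p = 0.0486) were called lower. The G6pc2 call did not hold without No Dox replicate 3 or without any single Dox library, with adjusted p from 0.0631 to 0.140.

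Genes that act beside the 9 were taken from 5 lists and read against 5.74% of all genes called in either direction. Of 17 glucose handling genes tested 0 were called by limma, and 3 had an unadjusted p under 0.05. The share of all genes at that unadjusted threshold in either direction is not given, so this count only describes the list. The most abundant genes of the list, Glud1 (glutamate dehydrogenase) and Ucp2 (a mitochondrial carrier), had differences of 0.90 (adjusted p = 0.251) and 0.29 (adjusted p = 0.838).

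Of 24 channel and excitability genes, 3 were called lower and 0 higher. They were Trpm5, a calcium-activated cation channel (-1.95, adjusted p = 0.0163), Kcnma1, the BK potassium channel (-1.65, adjusted p = 0.0425), and Scn3a, a sodium channel subunit (-1.56, adjusted p = 0.0442). Kcnj8 and Abcc9 encode the pore and regulatory subunits of the ATP-sensitive channel of vessels and smooth muscle. Unlike Abcc8 and Kcnj11 they had positive differences, 0.55 for Kcnj8 (adjusted p = 0.513) and 1.16 for Abcc9 (adjusted p = 0.178), with overlapping groups. Of 28 incretin and cAMP signalling genes 0 were called by limma, and 6 had an unadjusted p under 0.05, again without a share over all genes. The most abundant were Gcg, the precursor of glucagon (-0.89, adjusted p = 0.409), and Prkar1a, a regulatory subunit of protein kinase A (0.28, adjusted p = 0.849). Of 19 genes of a list of other islet receptors, which also holds the G protein subunits Gnaq and Gna11 and the phospholipases Plcb1 and Plcb3, 2 were called lower and 1 higher. Prlr, the prolactin receptor, averaged 6881 in Dox islets and 26345 in No Dox islets (-1.92, adjusted p = 0.0289). Casr, the calcium-sensing receptor, averaged 2223 and 7131 (-1.70, adjusted p = 0.0151). Gprc5b, an orphan receptor, averaged 1051 and 251 (2.02, adjusted p = 0.0360). Of 15 genes of a zinc list, which holds transporters, the metallothioneins Mt1 and Mt2 and their regulator Mtf1, 1 was called, Slc39a1, a zinc importer, which was higher (1.38, adjusted p = 0.0488). The abundant Slc30a7 and Slc30a1 had differences of -0.47 (adjusted p = 0.437) and 0.59 (adjusted p = 0.678), so the Slc30a8 call was not shared by them. Relative to the beta cell reference genes, none of the 5 genes called lower in these lists remained so.

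In the sorted cells, the mean signal of every one of the 9 genes was lower than in islets, and lowest in endothelial cells. The 9 genes held 0.00891 to 0.0139% of the summed signal of a macrophage library and 0.000402 to 0.000705% of an endothelial library, against 0.210 to 0.275% in Dox islets. The markers that define each sort had higher sums in the sorted cells than in Dox islets: the summed endothelial markers were 325904 to 376241 in endothelial cells and 132643 to 170160 in Dox islets, and the summed macrophage markers were 408117 to 429470 in macrophages and 17301 to 25677 in Dox islets. Acinar markers varied widely in the sorts, with sums of 28641, 438452 and 1391 in macrophages and 5756, 126508 and 310 in endothelial cells, against 157635, 102387 and 314953 in Dox islets. Macrophage replicate 2 and endothelial replicate 2 were the high libraries, and macrophage replicate 2 exceeded every Dox islet library. The part of RNA carried over from other pancreatic cells in the small values of the 9 genes was not tested.

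In macrophages against Dox islets, 8 of the 9 genes were called lower, where 31.4% of the 14479 genes tested were. Kcnj11, Gipr and Ffar1 reached the filter on low values, a signal of 15.5 in 3 libraries, only with the Dox islets, so the filter fixed their direction. Of the other 6 genes, which met it in macrophages alone, 5 were called lower. Slc2a2 had 20.9, 17.4 and 33.3 in macrophages, against 2249, 4735 and 4923 in Dox islets (-7.29, SE 0.42, adjusted p = 2.14e-06). G6pc2 had 96.3, 38.4 and 54.4 in macrophages (-7.43, SE 0.38, adjusted p = 1.25e-06), and Glp1r had 192, 213 and 167 (-6.32, SE 0.28, adjusted p = 7.77e-07). Abcc8, at 202, 142 and 549, kept a larger part of its islet level, 6.62% of the Dox islet mean, against 0.600% for Slc2a2 and 0.590% for G6pc2. Slc30a8 (226, 99.9 and 386) and Glp1r were at 1.23% and 1.20%. Kcnj11 (2.45, 2.75 and 24.2), Gipr (17.2, 5.50 and 4.66) and Ffar1 (42.6, 14.8 and 57.4) were at 4.50%, 3.53% and 5.78%. The 8 beta cell reference genes were at 1.14 to 3.56%, with a median of 1.61%, and none was at the floor in all 3 macrophage libraries.

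Cacna1d was the exception. It had 1550, 1560 and 1866 in macrophages, against 2268, 1869 and 3202 in Dox islets, so that macrophages held 67.8% of the islet level. The groups were separate by a small gap, and the difference was -0.53 (SE 0.24, 95% interval -1.07 to 0.01, adjusted p = 0.0907). It was called lower only when Dox replicate 2 was left out (-0.71, adjusted p = 0.0442). In endothelial cells Cacna1d had 16.1, 32.2 and 38.3, and macrophages exceeded them by 5.88 (SE 0.34, adjusted p = 2.25e-06). Within a library, Cacna1d was 3.40 to 11.0 times Abcc8 in macrophages, against 0.314 to 0.944 times in Dox islets. In macrophages Cacna1d had a coefficient of variation of 10.8%, near the 12.1% of Glp1r. The remaining genes ran from 35.1% for Slc2a2 to 127% for Kcnj11, with 73.9% for Abcc8.

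Cacna1d overlaps other genes in mm9. Its 3' end shares 518 exon bases, 5.54% of its 9347, with Chdh (choline dehydrogenase) on the opposite strand. Dcp1a, an mRNA decapping factor on the opposite strand at the other end, shares 0 exon bases. The use of strand in counting is not stated, so reads from these genes may not be separable there. Chdh had 118, 146 and 85.1 in macrophages, 6.15, 24.1 and 12.5 in endothelial cells and 165, 159 and 441 in Dox islets, below Cacna1d in each of these libraries. Dcp1a lay between 1066 and 1730 in macrophages and between 1296 and 1515 in endothelial cells, where Cacna1d did not exceed 38.3. The part of reads from Chdh and Dcp1a in the Cacna1d signal was not tested.

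**Figure D4:**
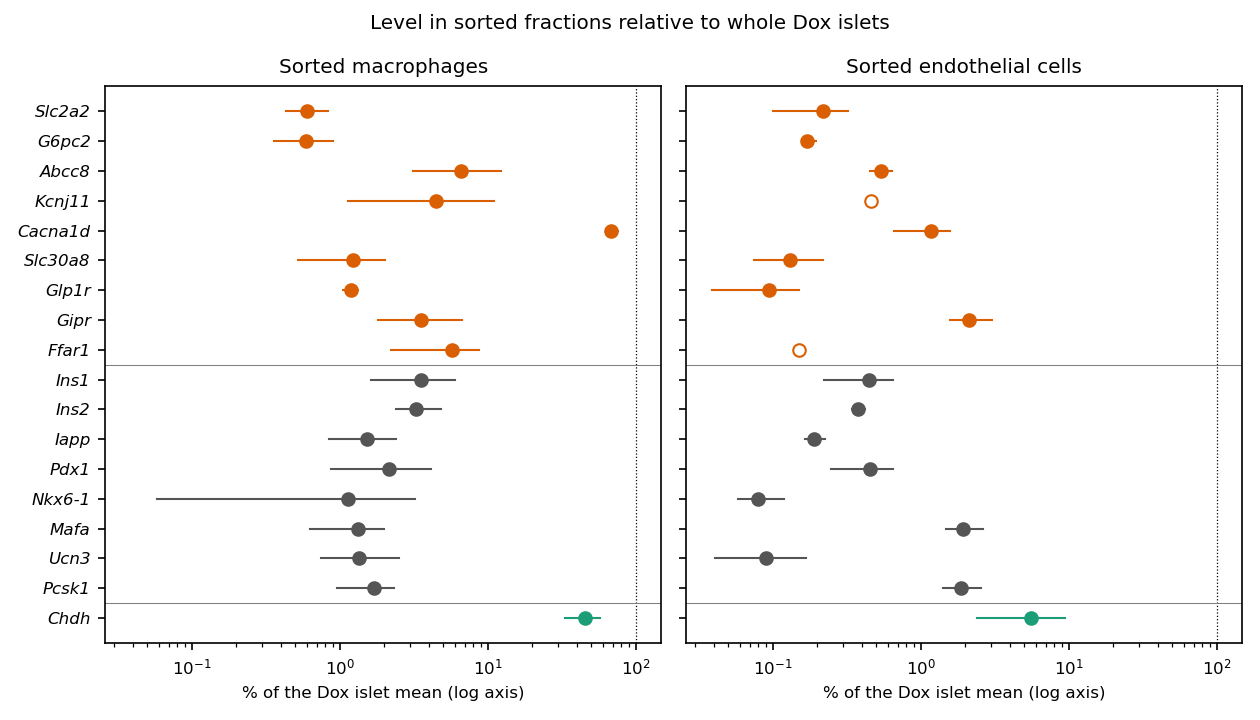
Mean signal in sorted macrophages (left) and endothelial cells (right) as % of the Dox islet mean (log axis), with lines from the lowest to the highest of 3 libraries, for the 9 genes, the beta cell reference genes and Chdh; open points were at the floor of 1 in all 3 libraries. Cacna1d reaches 67.8% in macrophages and 1.18% in endothelial cells, and the reference genes have medians of 1.61% and 0.412%.

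Relative to the beta cell reference genes, the median of all genes in macrophages against Dox islets was 5.84, and 90.7% of genes were called higher and 0.0967% lower. Cacna1d, at 5.51, lay near that median. Abcc8 was called higher at 2.00 (SE 0.61, adjusted p = 0.00124), Ffar1 higher at 1.78 (SE 0.77, adjusted p = 0.0227) and G6pc2 lower at -1.39 (SE 0.63, adjusted p = 0.0296). The reference genes spanned -1.79 to 1.04 on the same scale, a range that holds the G6pc2 value and not those of Abcc8 and Ffar1. Ffar1 met the filter only with the Dox islets, so its relative call is not read as a result. Without macrophage replicate 3 the calls of Abcc8 (1.28, adjusted p = 0.0953), Ffar1 (1.24, adjusted p = 0.157) and G6pc2 (-1.49, adjusted p = 0.0509) were lost. Without Dox replicate 2 or 3 those of Ffar1 (adjusted p = 0.0880 and 0.0534) and G6pc2 (0.131 and 0.118) were lost. Macrophage replicate 3 also had the most Gcg, 11441 against 3091 and 1227 in macrophage replicates 1 and 2. The alpha cell list, 6 genes of which 2 were at the floor in all 3 macrophage libraries, summed to 15816 to 29279 in macrophages and 125439 to 193687 in Dox islets. The part of alpha cell RNA in these values was not tested.

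In endothelial cells against Dox islets, G6pc2, Abcc8 and Cacna1d met the filter in the endothelial libraries alone, and these 3 were called lower, where 21.6% of the 14218 genes tested were. The other 6 genes met it only with the Dox islets, where they are high, so their lower calls followed from the filter and are not read against that share. With no filter on low values, all 9 genes were called lower. Kcnj11 and Ffar1 were listed at the floor of 1 in all 3 endothelial libraries, and no fold is given for them. Slc2a2 had 3.98, 12.8 and 9.38 in endothelial cells, G6pc2 20.8, 17.1 and 17.2, and Abcc8 23.3, 20.3 and 29.0. Slc30a8 had 14.3, 19.6 and 42.2, Glp1r 6.15, 24.1 and 14.7, and Gipr 4.10, 4.52 and 7.85. Glp1r had the lowest share of its Dox islet mean among the 7 genes above the floor, 0.0943% (difference -10.08, SE 0.46, adjusted p = 6.34e-06). Gipr had the highest, 2.13% (-5.25, SE 0.49, adjusted p = 8.74e-05). Relative to the reference genes, Gipr (2.66) and Cacna1d (1.50) were called higher and Glp1r (-2.17), Slc30a8 (-1.67) and G6pc2 (-1.15) lower. On this scale 98.0% of all genes were called higher and 0.127% lower. The reference genes spanned -1.78 to 2.27, so only Gipr and Glp1r fell outside their range. Gipr, Glp1r and Slc30a8 met the filter only with the Dox islets. In endothelial cells Gipr was at most 7.85, and the reference genes Nkx6-1 and Ucn3 were at most 2.05 and 4.10, near the floor. The relative calls of Gipr, Glp1r and Slc30a8 are therefore not read as a result. With any Dox library left out, Slc2a2, Kcnj11, Gipr and Ffar1, which were under 15.5 in every endothelial library, were no longer tested.

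Between the sorted fractions, G6pc2, Abcc8 and Cacna1d met the filter in endothelial cells alone and were called higher in macrophages, where 27.7% of the 13726 genes tested were. Slc2a2, Slc30a8 and Glp1r were also called higher, but met the filter only with the macrophage libraries, where they are higher, and Kcnj11, Gipr and Ffar1 were not tested. After Cacna1d the differences were 3.33 for Abcc8 (SE 0.52, adjusted p = 0.000739) and 1.63 for G6pc2 (adjusted p = 0.0136). Glp1r differed by 3.75 (SE 0.50, adjusted p = 0.000299) and Slc30a8 by 3.12 (SE 0.60, adjusted p = 0.00232). Slc2a2 differed by 1.42 (adjusted p = 0.0485). The filter favoured this direction for Glp1r, Slc30a8 and Slc2a2, so their calls are not read as a result. Macrophage and endothelial libraries of the same number varied together, and with the number as a block Slc2a2 was not called (adjusted p = 0.0596). Slc2a2 was also not called without any single endothelial library (adjusted p 0.0720 to 0.225), nor G6pc2 without macrophage replicate 1 (0.0536) or endothelial replicate 2 (0.0560).

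Across the 12 libraries, the genes whose profiles lay nearest to the mean profile of the 9 were found by the root mean square difference of centred log2 values. The nearest was Rimbp2, an active-zone protein, at 0.39, with means of 98.8 in macrophages, 9.47 in endothelial cells, 1933 in Dox islets and 6233 in No Dox islets. Nkx2-2, an endocrine transcription factor, and Tmem56 followed at 0.41, Cadps, a priming factor of dense-core granules, at 0.42 and Entpd3, an ectonucleotidase, at 0.43. D3Bwg0562e (0.44), Slc24a2 (0.46) and Pdx1 (0.47) completed the nearest 8. The 9 genes themselves lay at 0.64 for Ffar1, 0.67 for Abcc8, 0.97 to 1.36 for 6 genes and 1.95 for Cacna1d. These distances describe profiles over libraries that differ mainly in cell type.

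**Figure D5:**
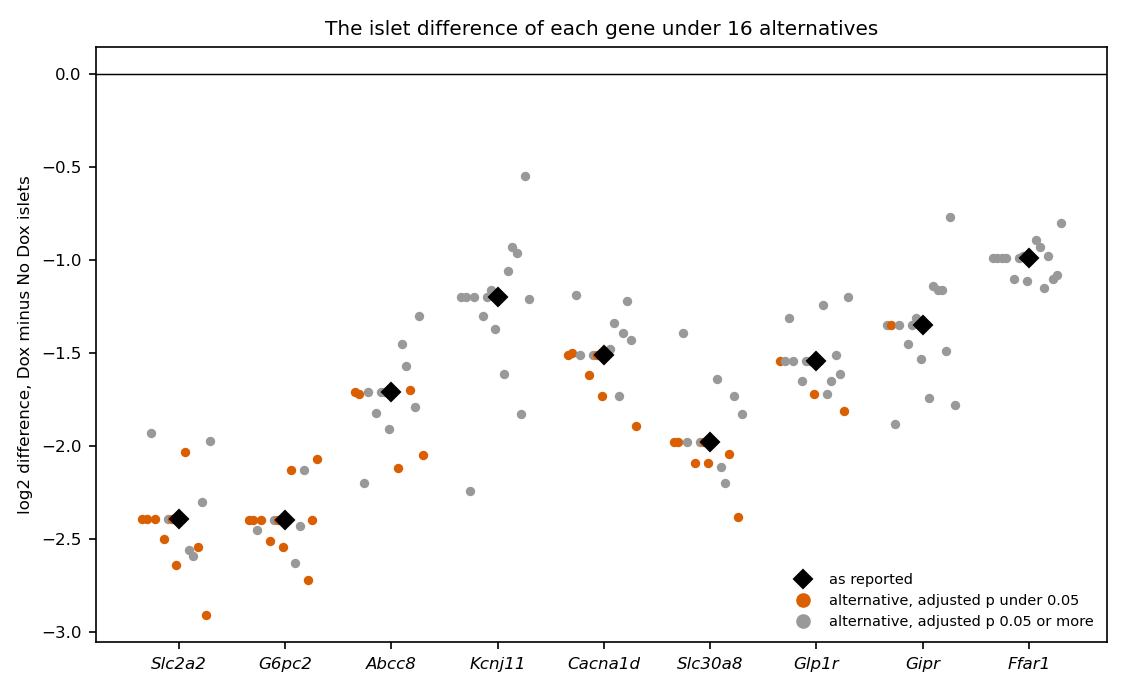
Difference of each gene between Dox and No Dox islets, on the log2 scale, as reported (diamonds) and under 16 alternatives in filter, scaling, model and libraries (circles; orange where the adjusted p was under 0.05). All values lie below 0, and Kcnj11 and Ffar1 were called under none of the alternatives.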

How the data were processed

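The deposited table gives, per the file headers, a normalized expression value per gene and library. These signal values are linear with a floor of 1 and were normalized by the authors; the method, the counting program and the use of strand are not given in the sources. Per the labels' protocols, total RNA was amplified before library preparation. The submitters' processing notes name TopHat2 2.0 and mm9. Low values were not whole multiples of a step (29.9 to 41.7% per library within 0.01 of one, below 20 steps), so no count model was used.

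Duplicate symbols (76) were reduced to the row with the highest mean and 25 symbols stored as dates were restored, leaving 22711 genes. Log2(signal + 1) was fitted with limma 3.58.1 (R 4.3.3) with a variance trend, on the 6 libraries of each comparison, for genes at 15.5 (the 40th percentile of the table) or more in at least 3 libraries. P-values are two-sided and adjusted by Benjamini-Hochberg over all genes tested. In the relative fit of macrophages limma estimated an infinite prior degrees of freedom, so that 1 spread trend serves all genes. The script was tested on simulated data. GC content came from GENCODE M1 transcripts. The 9 genes, the lists and the naming rules were chosen with earlier results of these data known. From each list the text names up to 3 called genes in each direction and, where fewer than 2 were called, the 2 most abundant; 1 further gene that the naming rule covers is not reported here. Relative fits of sorted cells and the series of library numbers were added after seeing the data. Same-numbered macrophage and endothelial libraries deviated together (r = 0.20, 0.36 and 0.31). With Dox islets of the same number, r was 0.20, 0.03 and 0.03 for macrophages and 0.26, -0.01 and 0.05 for endothelial cells. Between the islet groups it was -0.25, -0.52 and 0.17. The main fits carried no block for the number, also between the sorted fractions.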

Additional observations from a re-analysis of the deposited data

How the results depend on the processing

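All 9 genes stayed below 0 in Dox against No Dox islets under the 16 alternatives run, but which were called depended on them. With 3 genes called as reported, 0 were called with no filter, 5 with quantile normalization, 6 with the GC trend removed, 6 with the 4 groups fitted together and 0 in the libraries with numbers beginning with 36 alone. Leaving out 1 library each gave 0 to 4 genes. Over the table, 829 genes became 97 with no filter, 1568 with the GC trend removed, 1606 in the joint fit, 524 with the number series as a term, 329 in the higher series, 301 without No Dox 2 and Dox 1 together, and 5 to 801 with 1 library left out. With the replicate number as a block, which the data did not bear out for islets (r = -0.25, -0.52 and 0.17), 4 genes were called: Abcc8 (adjusted p = 0.0328) and Cacna1d (0.0461) were added and Slc30a8 (0.0508) was lost. Relative to the reference genes, 2 genes were called with the pan-endocrine reference, 0 with the block, and 0 to 2 with 1 library left out. Uncalled genes that changed sign with 1 library left out had ranges, on the relative scale, of -0.84 to 0.09 for Abcc8, -0.30 to 0.84 for Kcnj11, -0.68 to 0.38 for Cacna1d, -0.42 to 0.06 for Glp1r and -0.57 to 0.62 for Gipr (-0.08 with the pan-endocrine reference), and in macrophages -0.65 to 0.15 for Glp1r. On the level scale Ucp2 ranged from -0.17 to 0.80 (-0.15 in the higher series), Prkar1a from -0.12 to 0.79 (-0.01 with quantile normalization) and Slc30a1 from -0.04 to 1.15. In macrophages 8 genes were called in every alternative but 1, which called 9; relative to the reference genes 4 became 2 with the block and 2 to 5 with 1 library left out. In endothelial cells the 9 became 5 to 9 with 1 library left out and 2301 to 7156 genes were called in all, against 4706. The other causes were not tested. Whether an uncalled gene differs is limited by 3 libraries a group and unknown depth.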
